A study of Rattus norvegicus with 24 samples.

Results

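Methamphetamine (METH) taking was compared with saline taking in the nucleus accumbens (NAc) of male Sprague Dawley rats, with 12 arrays of rats that took METH against 12 arrays of rats that took or received only saline, which together are all 24 arrays of the series. The takers were the shock resistant (SR, n = 6) and shock sensitive (SS, n = 6) rats, which pressed a lever for intravenous dl-METH, were then given footshocks on part of those presses, and were sorted afterwards by whether they kept pressing. The saline rats were the controls that took saline without shocks (CT, n = 6) and the saline rats yoked to SR and to SS partners (YSR, n = 3, and YSS, n = 3), which received a shock whenever the partner did and whatever they themselves did. Tissue was taken about a month into withdrawal, on the day after the second test of cue-driven drug seeking, and RNA of each rat was run on its own Rat Transcriptome Array. All 24 rats were of the same strain and sex, and no genetic change is described for any group. Takers differed from CT in drug and shock and from yoked rats in drug and in control over the shock, so a gene was followed here when takers differed from both kinds of saline rat in the same direction. A mark in brackets follows the titles of all arrays except the yoked ones. What it stands for is not stated, so if it stands for a separate run, that run and yoking cannot be told apart.

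The NAc is the ventral part of the striatum, where dopamine from the midbrain meets glutamatergic input on medium spiny neurons and where repeated psychostimulants are known to leave long-lasting changes in transcription. RNA in this tissue comes from these neurons, from interneurons and from glia, among them oligodendrocytes, which wrap axons in myelin. All 12 markers of medium spiny neurons on the gene lists passed the signal filter of the study (a mean CT signal above that of the bioB hybridization control), and their mean log2 signal ranged from 11.66 to 13.52 over takers and from 12.19 to 13.57 over saline arrays. None of 7 choroid plexus and ependyma markers and none of 7 hypothalamic neuron markers passed it. The filter looks at CT alone, so it cannot tell whether such RNA was present in takers. In a fit over all probe sets, takers differed from saline arrays by 1.72 for Oxt, 0.40 for Avp and -0.22 for Hcrt among the hypothalamic markers. The difference was 0.85 for Ttr and -0.087 for Foxj1 among the choroid plexus and ependyma markers, and none of these was called. The filter kept 9044 of 68842 probe sets. Over these the array medians were 11.73 to 11.89 in takers and 11.61 to 11.87 in saline arrays, the lowest being CT replicate 3. Over all probe sets the medians were 4.87 to 5.06 in takers and 4.92 to 5.22 in saline arrays. The median difference of takers from saline arrays was -0.037 over all probe sets and 0.020 over the tested ones, on the log2 scale.

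The genes called higher in METH takers than in saline rats included Ncl, Hnrnpa3 and Safb, which encode nuclear RNA-binding proteins, Anp32e and Anp32b of the acidic ANP32 family, Pfkm and Pkm of glycolysis, and Qdpr, Abca2 and Elovl1, which oligodendrocytes express. At an adjusted p under 0.05 (limma, Benjamini-Hochberg over all tested probe sets), 68 probe sets (0.752% of those tested) were called, of which 61 (0.674%) were higher and 7 (0.0774%) lower in takers. All 68 differed in the same direction against CT and against yoked arrays, which a call on the pooled difference largely fixes, since that difference averages both, and nothing is read from it. Over all tested probe sets, called or not, 6339 of 9044 (70.1%) did. The higher probe sets differed by 1.13-fold to 1.71-fold, with a median of 1.23-fold. They included 41 named genes on matching chromosomes, and 53 of the 61 were annotated as coding or complex loci, against 4612 of the 9044 tested (51%). The 7 lower ones, by 1.18-fold to 1.37-fold, were all non-coding or unassigned loci, and none matched a gene on its own chromosome. At an unadjusted p under 0.05, 1090 tested probe sets (12.1%) were higher and 263 (2.91%) lower.

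**Figure D1:**
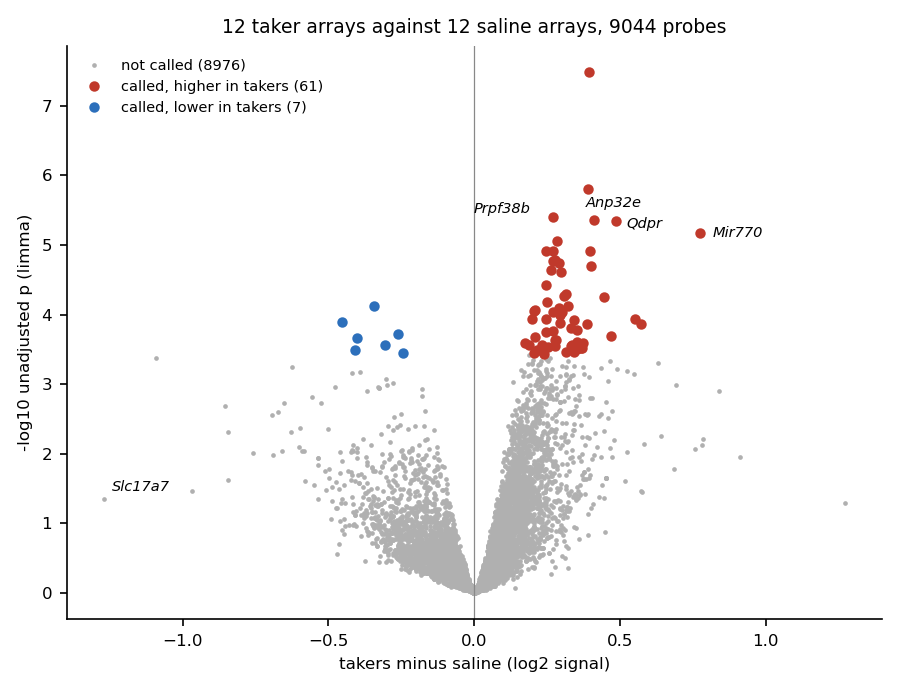
Difference between the means of 12 taker and 12 saline arrays (x axis, log2 signal) against -log10 of the unadjusted limma p (y axis) for 9044 probe sets, with called probe sets in colour. The 61 red points on the right stand against 7 blue points on the left, and Slc17a7, at the far left, is not called.

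The count of 68 depended on single arrays and on the processing. Leaving out each array in turn gave between 18 and 270 calls. The count was over 1.5 times higher without SR replicate 1 (270), SS replicate 4 (152), YSS replicate 1 (137), YSR replicate 1 (125) or SR replicate 2 (111). It was lower by more than that factor without SR replicate 3 (18), SR replicate 6 (20), SR replicate 4 (22), YSS replicate 3 (22), CT replicate 2 (23), CT replicate 5 (27), CT replicate 3 (32), YSS replicate 2 (32), YSR replicate 3 (33), SR replicate 5 (36), SS replicate 2 (40) or CT replicate 1 (41). With array medians set equal over all probe sets, 15 were called and all were higher. A further quantile normalization gave 53 higher and 22 lower, and testing every probe set with no filter gave 41 higher and 19 lower. The 41 named genes were higher in takers under each of these settings. Their choice by a higher difference on these same arrays largely fixes that, and nothing is read from it. The number of the 41 still called was 9 with equal array medians and ran from 12 to 41 over the left-out arrays. Calls near the threshold were the least stable. With each of the 24 arrays left out in turn, Tnpo2 was called in 6 runs, Pkm, Hnrnpa1, Elovl1 and Abat in 7 each, Ewsr1 in 8, Supt5h and Ttyh2 in 9 each and Abca2 in 11, whereas Anp32e, Anp32b, Qdpr, Ncl, Ogdh, Ganab, Hnrnpa3, Safb and Pfkm were called in all 24.

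**Figure D2:**
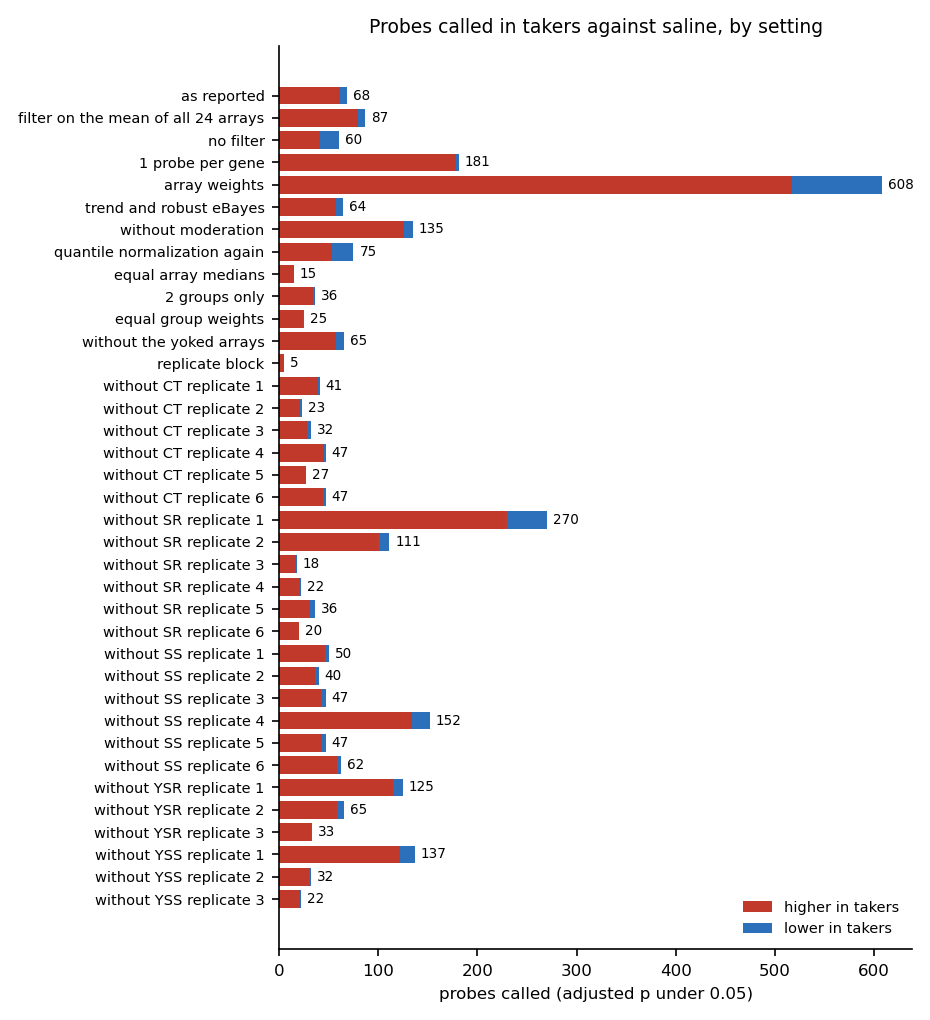
Number of probe sets called in takers against saline (x axis) as reported, under 12 other settings and without each array in turn, with bars split into higher (red) and lower (blue). Most calls were higher in takers under every setting shown, and the count ran from 5 to 608.

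Against each kind of saline rat alone, fewer probe sets were called. Takers differed from CT at 44 probe sets (0.487%), 40 higher and 4 lower, and from yoked rats at 4 (0.0442%), all higher. Of the 68 called in the pooled comparison, 27 were also called against CT, 4 against yoked rats and 39 against neither alone. Only 2 probe sets (0.0221%) were called against both, that of Prpf38b among them. The count against CT ran from 0 (without CT replicate 2) to 161 (without SR replicate 1) and moved by over 1.5 times without any array but YSS replicate 1 or 3, and the count against yoked rats ran from 1 (without YSR replicate 3 or YSS replicate 3) to 38 (without SR replicate 1). Without CT replicate 2 or CT replicate 3 none was called against both. These 2 comparisons share the 12 taker arrays, so each difference is given for itself.

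Prpf38b, a factor needed by the spliceosome before its catalytic step, had no overlap between takers and saline rats. Its log2 signal was 9.97 to 10.21 (median 10.11) over CT, 10.07, 10.01 and 10.12 in YSR, between 9.97 and 10.20 in the 3 YSS arrays, and 10.22 to 10.44 (median 10.37) over takers, so that the lowest taker stood just above the highest CT array. The difference was 0.27 (95% interval 0.18 to 0.36, limma adjusted p = 0.00825), 0.25 against CT (adjusted p = 0.0444) and 0.29 against yoked rats (adjusted p = 0.0495). Both of the last values lie close to the threshold, and with each of the 24 arrays left out in turn the call against CT held in 5 runs and that against yoked rats in 9. All 12 takers were above all 12 saline arrays at 5 of the 9044 probe sets (0.0553%), and none was below in the same way (0%). With 10 or more takers above every saline array, the number was 12 (0.133%).

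Members of the ANP32 family, acidic leucine-rich nuclear proteins that bind histones and act in chromatin and RNA export, made up 2 of the calls. Anp32e, a chaperone that removes the histone variant H2A.Z, had log2 signals of 9.78 to 10.32 (median 10.05) over CT, 10.10, 10.04 and 10.15 in YSR, 9.88, 10.10 and 10.06 in YSS, and 10.17 to 10.77 (median 10.50) over takers. Here 9 of 12 takers exceeded every saline array, and the difference of 0.41 (95% interval 0.27 to 0.55, limma adjusted p = 0.00825) was called under all 36 other settings. Anp32b was 9.67 to 10.05 (median 9.97) over CT, 10.03, 9.89 and 9.93 in YSR, 10.02, 9.98 and 9.75 in YSS, and 10.06 to 10.38 (median 10.19) over takers. Its groups did not overlap, although the highest CT array and the lowest taker were only about 0.01 apart, and its difference was 0.27 (adjusted p = 0.0124). The related Anp32a, named after its values were seen, differed by 0.23 and missed the threshold (adjusted p = 0.0566).

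**Figure D3:**
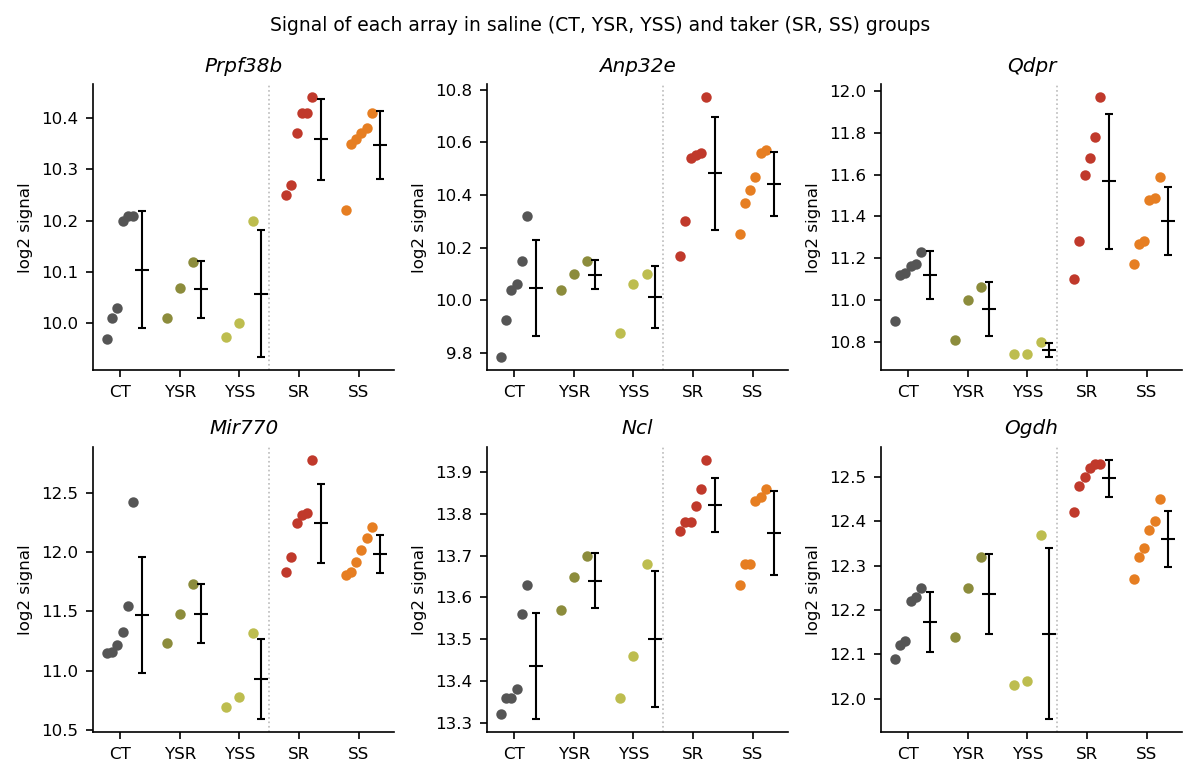
Log2 signal (y axis) of each array in CT, YSR, YSS, SR and SS (x axis) for 6 called genes, with the mean and SD of each group beside the points. Takers and saline rats do not overlap for Prpf38b, whereas 1 CT array of Mir770 stands at 12.42 among the takers.

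The start regions of 33 of the 41 named genes were found in RefSeq (build GRCr8, stretches of 300 bases around the start, most of them before it), and those of Prpf38b, Anp32e, Qdpr and Ncl, 4 genes that have an entry and lie among those of smallest p, are shown because these genes were all called higher. They lie at chr2:199250289-199250588 (minus strand), chr2:186161342-186161641 (plus), chr14:69882526-69882825 (plus) and chr9:94456034-94456333 (minus). Capitals mark matches, on either strand, to the GC box GGGCGG, the CCAAT box, the ETS core CCGGAAG, the cAMP element TGACGTCA, the E-box CACGTG or the TATA box TATAAA.
Prpf38b: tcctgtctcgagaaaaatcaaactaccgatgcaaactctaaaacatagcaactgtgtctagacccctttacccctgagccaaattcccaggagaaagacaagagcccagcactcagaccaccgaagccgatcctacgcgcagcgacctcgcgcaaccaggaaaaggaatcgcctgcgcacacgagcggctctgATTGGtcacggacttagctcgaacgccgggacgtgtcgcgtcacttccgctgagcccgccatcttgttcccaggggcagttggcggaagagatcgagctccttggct
Anp32e: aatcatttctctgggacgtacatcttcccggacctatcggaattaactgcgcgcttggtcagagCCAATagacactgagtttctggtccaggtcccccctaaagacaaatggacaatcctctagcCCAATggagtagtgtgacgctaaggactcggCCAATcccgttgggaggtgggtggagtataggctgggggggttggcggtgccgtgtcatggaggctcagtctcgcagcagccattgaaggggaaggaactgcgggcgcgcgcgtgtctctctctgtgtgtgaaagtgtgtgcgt
Qdpr: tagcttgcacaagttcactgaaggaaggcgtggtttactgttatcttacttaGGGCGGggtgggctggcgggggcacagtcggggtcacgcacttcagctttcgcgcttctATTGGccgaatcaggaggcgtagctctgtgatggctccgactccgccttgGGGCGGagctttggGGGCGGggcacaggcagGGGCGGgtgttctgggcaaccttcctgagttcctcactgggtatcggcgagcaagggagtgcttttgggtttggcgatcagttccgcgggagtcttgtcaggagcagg
Ncl: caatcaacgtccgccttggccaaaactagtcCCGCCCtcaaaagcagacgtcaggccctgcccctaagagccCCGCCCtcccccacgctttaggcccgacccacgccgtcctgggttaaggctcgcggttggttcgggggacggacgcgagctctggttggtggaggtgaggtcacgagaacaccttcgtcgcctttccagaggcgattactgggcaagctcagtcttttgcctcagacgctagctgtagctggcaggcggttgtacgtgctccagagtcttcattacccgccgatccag
Anp32e holds 3 CCAAT boxes, Qdpr 4 GC boxes and 1 CCAAT box, Ncl 2 GC boxes and Prpf38b 1 CCAAT box. The CCAAT boxes of Qdpr and Prpf38b and the GC boxes of Ncl are on the other strand. Over the 33 start regions, the GC box was found in 26 (78.8%), against 66.9% of 2985 tested genes and 34.9% of 27457 start regions in all. For the CCAAT box the values were 33.3%, 36.1% and 37.7%, and for the cAMP element 3.03%, 3.58% and 1.91%. The ETS core was found in 18.2%, 15.5% and 9.22%, the E-box in 12.1%, 8.74% and 6.65%, and the TATA box in 3.03%, 5.66% and 14.3%. The median GC content was 63.0% for the called genes and 63.3% for the tested genes. A match is a description of these letters.

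Further genes of nuclear RNA metabolism were higher in takers. Ncl, nucleolin, which acts in ribosomal RNA synthesis, was 13.32 to 13.63 (median 13.37) over CT, 13.70, 13.65 and 13.57 in YSR, 13.46, 13.68 and 13.36 in YSS, and 13.63 to 13.93 (median 13.80) over takers. All takers were above all CT arrays, with the lowest taker next to the highest CT array, while 3 yoked arrays lay within their range, and the difference was 0.28 (limma adjusted p = 0.0112), 0.35 against CT (adjusted p = 0.0173) and 0.22 against yoked rats (adjusted p = 0.221). A probe set of its pseudogene copy Ncl-ps1 was higher by 0.32 (adjusted p = 0.0249), and signal shared with Ncl cannot be told apart. Hnrnpa3 and Hnrnpa1, which bind pre-mRNA, were higher by 0.28 (adjusted p = 0.0124) and 0.22 (adjusted p = 0.0462), and Safb, which ties RNA-binding proteins to the nuclear matrix, by 0.27 (adjusted p = 0.0136). Ewsr1, which binds RNA and acts in transcription and splicing, was higher by 0.28 (adjusted p = 0.0445). Of 40 tested members of the list of nuclear RNA-binding and splicing factors, 5 were called higher and none lower. At an unadjusted p under 0.05, 19 were higher and none lower, where 679 of 3716 tested genes (18.3%) were higher and 68 (1.83%) lower, and the median difference was 0.10 against 0.05 over all tested genes. Among all 3716 tested genes, taking the brightest probe set of each, 40 (1.08%) were called, every one higher. Outside the list, Ddx24 (an RNA helicase, 0.25, adjusted p = 0.0325), Supt5h (a transcription elongation factor, 0.21, adjusted p = 0.0433) and Tnpo2 (a nuclear import receptor, 0.21, adjusted p = 0.0476) were called.

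Genes of glucose breakdown and of the citric acid cycle made up 3 calls. Pfkm, the muscle-type subunit of phosphofructokinase, which commits glucose to glycolysis, was 10.88 to 11.16 (median 11.04) over CT, 11.21, 11.19 and 11.12 in YSR, 11.01, 11.01 and 10.77 in YSS, and 11.11 to 11.67 (median 11.32) over takers. In 10 of 12 takers the signal was above every saline array, and the difference was 0.30 (limma adjusted p = 0.0137). Pkm, pyruvate kinase, differed by 0.19 (adjusted p = 0.0457). Ogdh, a subunit of the 2-oxoglutarate dehydrogenase complex of the citric acid cycle, was 12.09 to 12.25 (median 12.17) over CT, 12.25, 12.32 and 12.14 in YSR, 12.37, 12.04 and 12.03 in YSS, and 12.27 to 12.53 (median 12.43) over takers. All takers were above all CT arrays, and 2 yoked arrays fell among them. Its difference was 0.25 (adjusted p = 0.0112). On the glycolysis list all 15 tested members were higher against both CT and yoked arrays, 2 were called and 10 were higher at an unadjusted p under 0.05, with a median difference of 0.17. The list mean was 13.24 to 13.71 over takers and 13.09 to 13.48 over saline arrays. Of 16 citric acid cycle genes 1 was called and 5 had an unadjusted p under 0.05, and of 35 oxidative phosphorylation genes 0 and 10, all higher. By group, the glycolysis mean was 13.58 in SR, 13.37 in SS, 13.27 in CT, 13.38 in YSR and 13.25 in YSS. In the same order it was 12.41, 12.24, 12.22, 12.26 and 12.23 for the citric acid cycle. For oxidative phosphorylation it was 11.63, 11.48, 11.45, 11.54 and 11.49. On all 3 lists SS lay below YSR, and only SR was above every saline group. Of all tested genes 1.08% were called and 18.3% were higher at an unadjusted p under 0.05. Citrate synthase, Cs, differed by 0.30 (adjusted p = 0.0577), Sdha of complex II by 0.20 (adjusted p = 0.116) and Atp5f1b of the ATP synthase by 0.16 (adjusted p = 0.0927).

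Several called genes are expressed strongly in oligodendrocytes or myelin. Qdpr, dihydropteridine reductase, which regenerates the cofactor of the enzymes that make dopamine and serotonin, was 10.90 to 11.23 (median 11.14) over CT, between 10.81 and 11.06 in the 3 YSR arrays, 10.80, 10.74 and 10.74 in YSS, and 11.10 to 11.97 (median 11.48) over takers. Here 10 of 12 takers stood above every saline array and the YSS arrays were the lowest. The difference was 0.49 (95% interval 0.32 to 0.65, limma adjusted p = 0.00825), 0.62 against yoked rats (adjusted p = 0.0127) and 0.36 against CT (adjusted p = 0.0964). Csrp1, a LIM-domain protein of the actin cytoskeleton, differed by 0.45 (adjusted p = 0.0249), Ttyh2, a membrane protein of the tweety family, by 0.47 (adjusted p = 0.0425), Elovl1, which lengthens the very long fatty acids found in myelin lipids, by 0.37 (adjusted p = 0.0462), and Abca2, a lipid transporter of oligodendrocytes, by 0.35 (adjusted p = 0.0381).

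The oligodendrocyte markers also had higher means in takers. All 10 tested markers were higher against CT and against yoked arrays, 9 of 10 had an unadjusted p under 0.05 (18.3% of all tested genes did in this direction), none was called, and the median difference was 0.37. Mag, a myelin adhesion protein, was 9.27 to 9.88 (median 9.70) over CT, 9.94, 9.78 and 9.47 in YSR, 9.80, 9.22 and 9.15 in YSS, and 9.51 to 11.13 (median 10.20) over takers. The ranges overlapped, with 8 takers above every saline array, and the difference was 0.55 (limma adjusted p = 0.0583). Mog, a protein of the outer myelin surface, differed by 0.47 (adjusted p = 0.0549), Mal, a myelin proteolipid, by 0.40 (adjusted p = 0.0783) and Mobp, a myelin-associated basic protein, by 0.31 (adjusted p = 0.0583). Mbp, the myelin basic protein, was under the signal filter and in the fit over all probe sets differed by 0.38 (adjusted p = 0.0775). The mean log2 signal of the 10 markers was 12.44 to 13.42 over takers, 12.26 to 12.86 over CT and 12.11 to 12.55 over yoked arrays, so 4 groups of values ran in the order YSS, YSR, CT and takers by their means (12.30, 12.46, 12.57 and 12.84) with overlap between each and the next. More oligodendrocytes in the dissected piece and more of these transcripts in each cell cannot be told apart in such bulk RNA, and the part of this difference in the calls of Qdpr, Csrp1, Ttyh2, Elovl1 and Abca2 was not tested. Of 6 astrocyte markers 1 had an unadjusted p under 0.05 (Glul, glutamine synthetase, 0.18), of 4 microglia markers none, and of 2 endothelial and pericyte markers 1 (Rgs5, a pericyte regulator of G protein signalling, 0.27, limma adjusted p = 0.225). The mean of those 2 was 12.77 to 13.18 over takers and 12.24 to 13.19 over saline arrays, and its part in the calls was not tested. Of 12 medium spiny neuron markers none had an unadjusted p under 0.05, and their median difference was -0.011.

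**Figure D4:**
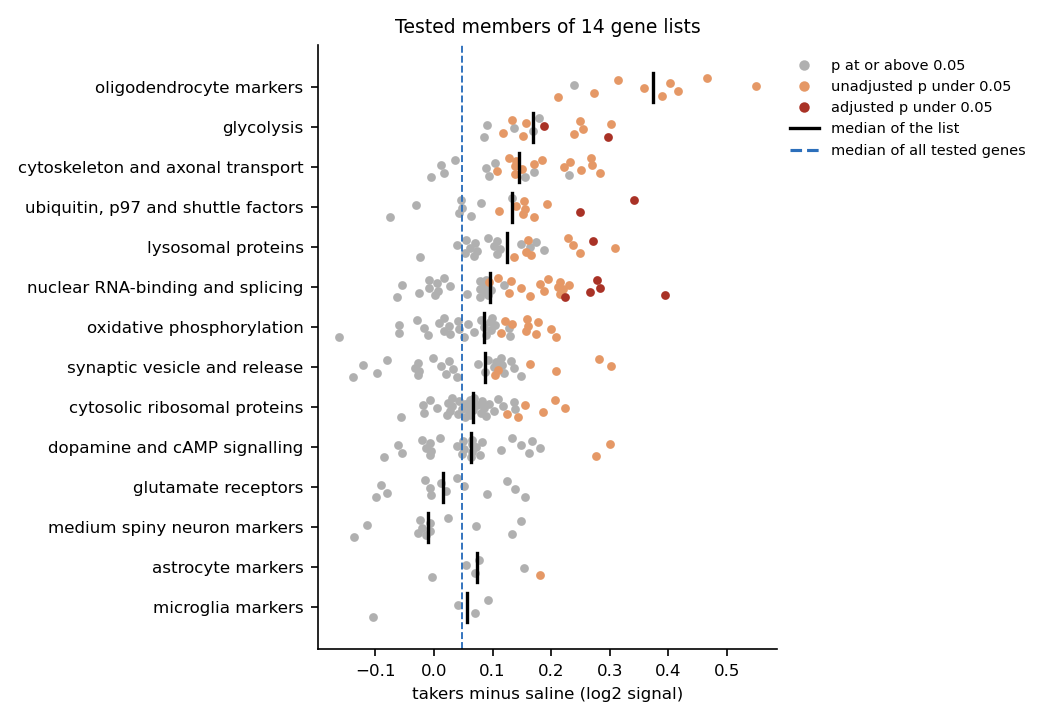
Difference between taker and saline means (x axis, log2 signal) of each tested member of 14 gene lists (y axis), coloured by p, with the list median as a black bar and the median of all tested genes as a dashed line. The oligodendrocyte markers lie farthest to the right, with a median of 0.37, and the medium spiny neuron markers surround 0.

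Protein turnover and lysosomal genes included 4 calls. Sqstm1, p62, an adaptor that carries ubiquitinated cargo to autophagosomes, was 9.999 to 10.45 (median 10.42) over CT, 10.64, 10.43 and 10.28 in YSR, 10.34, 10.24 and 10.16 in YSS, and 10.33 to 11.01 (median 10.70) over takers. Only 6 takers were above every saline array, and the difference was 0.34 (limma adjusted p = 0.0332). Nsfl1c, the p47 cofactor of the p97 ATPase, differed by 0.25 (adjusted p = 0.0287), Psap, the precursor of the saposins that assist lysosomal lipid breakdown, by 0.27 (adjusted p = 0.0300), and Ganab, a subunit of glucosidase II, which trims glycans in the endoplasmic reticulum, by 0.27 (adjusted p = 0.0112). At an unadjusted p under 0.05, 9 of 17 ubiquitin and p97 genes, 9 of 26 lysosomal genes, 6 of 23 proteasome genes and 5 of 13 genes of endoplasmic reticulum folding were higher, and none was lower, where 18.3% of all tested genes were higher. The proteasome share lies near that background. The proteasome mean was 11.42 in SR and 11.26 in SS, against 11.23 in CT, 11.32 in YSR and 11.28 in YSS. For endoplasmic reticulum folding it was 12.42 in SR and 12.26 in SS, against 12.19 in CT and 12.26 in both YSR and YSS. For ubiquitin and p97 genes it was 12.64 in SR and 12.52 in SS, against 12.41 in CT, 12.55 in YSR and 12.47 in YSS. For lysosomal genes it was 12.47 in SR and 12.34 in SS, against 12.26 in CT, 12.34 in YSR and 12.23 in YSS. On all of these lists, to the digits given, only SR was above every saline group. Of 24 genes of the cytoskeleton and axonal transport 14 were higher at an unadjusted p under 0.05, against the same 18.3%, and none was called. They were led by Pfn2, a neuronal profilin (0.28, adjusted p = 0.0741), and Klc1, a kinesin light chain (0.19, adjusted p = 0.089). The mean of this list was 13.94 in SR and 13.77 in SS, against 13.69 in CT, 13.79 in YSR and 13.64 in YSS.

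Few genes of synaptic transmission passed a test. Gabbr1, which encodes a subunit of the GABA-B receptor, was the call among 13 GABA receptor genes, with log2 signals of 13.65 to 13.80 (median 13.73) over CT, 13.78, 13.81 and 13.79 in YSR, 13.86, 13.86 and 13.49 in YSS, and 13.81 to 14.07 (median 13.95) over takers. All takers were above all CT arrays, 9 were above every saline array, and the difference was 0.21 (limma adjusted p = 0.0300). Abat, the transaminase that breaks GABA down, was also called (0.33, adjusted p = 0.0457). No member of the lists of glutamate receptors (14 tested), postsynaptic scaffold and CaMKII (21), potassium channels (19), striatal transcription factors (5) or immediate early genes (2) had an unadjusted p under 0.05. For Grin1, the obligatory NMDA receptor subunit, the 95% interval of the difference was -0.00059 to 0.25, and for Egr1, an immediate early gene, -0.40 to 0.25. Of 28 dopamine and cAMP genes 2 were higher at an unadjusted p under 0.05, Prkar1a (0.28, adjusted p = 0.134) and Prkaca (0.30, adjusted p = 0.147), which encode subunits of protein kinase A. Of 31 synaptic vesicle genes 6 were, led by Sv2a (0.28, adjusted p = 0.121), and of 39 cytosolic ribosomal proteins 6. Both shares lie near the 18.3% of all tested genes that were higher in this way, so neither is a result about these lists. The ribosomal proteins had a median difference of 0.13 against CT and 0.0021 against yoked arrays.

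**Figure D5:**
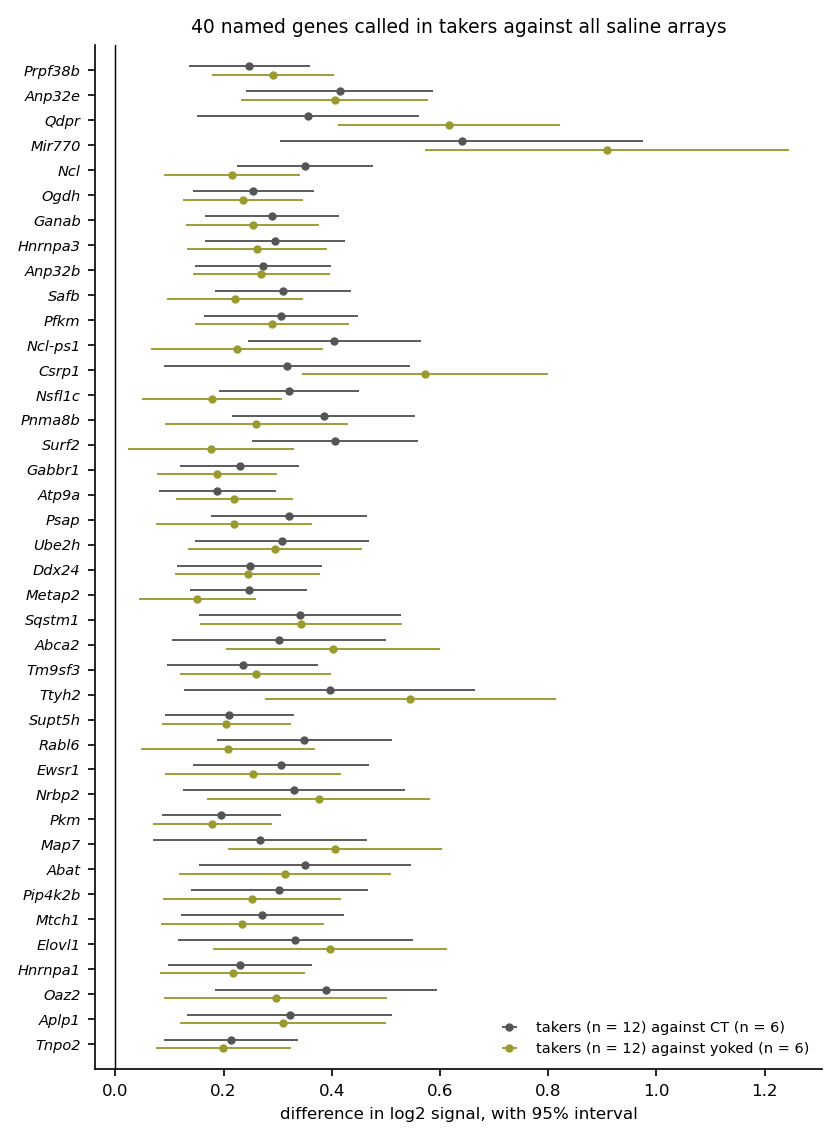
Difference in log2 signal (x axis) of takers (n = 12) against CT (n = 6, grey) and against yoked rats (n = 6, olive), with 95% intervals from limma, for 40 of the called named genes (y axis). Each interval lies to the right of 0, and for Surf2 and Metap2 the interval against yoked rats comes close to it. The genes were chosen by the pooled difference, which averages both, so such intervals are favoured by the choice and are not separate evidence.

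Mir770 showed the largest difference among the called probe sets. Its probe set of 1237 bases (chromosome 6, 133682557 to 133683793, plus strand, in coordinates of the array annotation) lies inside that of Meg3, the imprinted non-coding RNA that carries this microRNA, and is read here as RNA from that stretch and not as the mature microRNA. The mature forms in RefSeq (GRCr8, chr6:134298094-134298115 and chr6:134298129-134298145) are printed with the seed, bases 2 to 8, in capitals, as the sequences that this locus can give.
rno-miR-770-5p: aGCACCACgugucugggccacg
rno-miR-770-3p: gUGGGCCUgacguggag
The log2 signal was 11.15 to 12.42 (median 11.28) over CT, 11.48, 11.23 and 11.73 in YSR, 10.78, 11.32 and 10.69 in YSS, and 11.81 to 12.78 (median 12.07) over takers. All takers were above all saline arrays except CT replicate 5, at 12.42, which was above all but 1 of them. The difference was 0.77, or 1.71-fold (95% interval 0.50 to 1.05, limma adjusted p = 0.0102), 0.91 against yoked rats (adjusted p = 0.0363) and 0.64 against CT (adjusted p = 0.0739). The Meg3 probe set, chosen after its values were seen, differed by 0.31 (adjusted p = 0.0632), from 14.42 to 15.07 over takers and from 14.09 to 14.69 over saline arrays. Mir770 was listed by the study as changed in these same arrays, so its call is not independent evidence.

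By the fold criterion of the study's methods, 1.7-fold at an unadjusted p under 0.05, and with the same direction against both kinds of saline rat, 11 probe sets were found (0.122%), 6 of them without CT replicate 3, SR replicate 5 or YSS replicate 3 and 7 without CT replicate 5 or SR replicate 4. Only 2 of them matched a named gene, Mir770 and Slc17a7. Several lay near the background of the arrays. The signal of Slc17a7 was above the 95th percentile of the negative controls in 7 arrays, 2 of takers and 5 of saline rats. Probe sets without a matched gene were above it in 1, 2, 6, 17 and 19 arrays, and Mir770 and the rest in all 24. Slc17a7, the vesicular glutamate transporter of cortical glutamatergic neurons, was 7.80 to 11.47 (median 9.08) over CT, 10.63, 7.51 and 11.16 in YSR, 9.38, 7.69 and 10.86 in YSS, and 6.58 to 11.09 (median 7.95) over takers. Single arrays in both sets were high and the ranges overlapped widely, with a difference of -1.27 (95% interval -2.51 to -0.032, limma adjusted p = 0.316). Rorb, another cortical marker, differed by -0.083 (95% interval -0.21 to 0.048).

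No named gene was called lower. The smallest p values in that direction belonged to Marchf7, a ubiquitin ligase, and Ap1ar, a regulator of adaptor complex AP-1. Marchf7 was 11.66 to 11.90 (median 11.77) over CT, 11.70, 11.80 and 11.76 in YSR, 11.73, 11.87 and 11.91 in YSS, and 11.24 to 11.76 (median 11.64) over takers, a difference of -0.17 (limma adjusted p = 0.0927). For Ap1ar, the values were 12.27 to 13.23 (median 12.81) over CT, 12.52, 12.57 and 13.03 in YSR, 13.27, 12.29 and 13.18 in YSS, and 11.13 to 13.04 (median 12.24) over takers, a difference of -0.67 (adjusted p = 0.0928). In both genes takers reached into the saline range. Tspyl1 (-0.20, adjusted p = 0.117), H3f3c (-0.16, adjusted p = 0.136) and Nlk (-0.17, adjusted p = 0.140) followed. Of 8 tested glucocorticoid-responsive genes, the metallothioneins Mt1m (-0.35, adjusted p = 0.201) and Mt2A (-0.25, adjusted p = 0.295) had an unadjusted p under 0.05 and none was called. Of all 3716 tested genes, 68 (1.83%) were lower in this way. Mt1m differed by -0.23 against CT and -0.47 against yoked arrays, and Mt2A by -0.16 and -0.35. The median difference of the 8 genes was 0.042 against CT and -0.15 against yoked arrays.

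The genes that the study followed by PCR showed no call in the pooled comparison, but of these only Ptpro and Cartpt passed the signal filter and could be called. Oxt, Oxtr, Pdk4 and Fmo2 lay under it. The study chose Oxt on these same arrays and Cartpt on its arrays of the dorsal striatum. Fmo2, Pdk4 and Ptpro were chosen for changes in yoked rats, and how Oxtr was chosen is not stated. Oxt, oxytocin, lay under the signal filter, and its log2 signal was 5.35 to 7.79 (median 5.90) over CT, 5.94, 5.85 and 5.70 in YSR, 5.90, 6.27 and 5.79 in YSS, 7.28 to 12.51 (median 8.45) over SR and 5.51 to 8.95 (median 5.94) over SS. A single SS array, at 8.95, and 4 of the SR arrays stood above every saline array, and the other takers overlapped the saline range. In the fit over all probe sets the pooled difference was 1.72 (95% interval 0.66 to 2.78, limma adjusted p = 0.146). In that same fit Oxtr, the oxytocin receptor, differed by 0.18 (adjusted p = 0.245) and Fmo2, a flavin monooxygenase, by -0.094 (adjusted p = 0.743). In the fit of the tested probe sets Ptpro, a receptor tyrosine phosphatase, differed by -0.23 (adjusted p = 0.694). Cartpt, the precursor of the CART peptides, and Pdk4, which inhibits pyruvate dehydrogenase, ran in opposite directions against the 2 kinds of saline rat, Cartpt by 0.11 against CT and -0.26 against yoked rats and Pdk4 by 0.11 and -0.42.

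Within the takers, the called probe sets were compared between SR and SS, and within the saline rats between yoked and CT. The pooled difference did not use these contrasts, but the tests share its estimate of the spread between rats. A call favours probe sets of small spread, so a higher share among the 68 can come in part from that choice. None of the 68 differed between SR and SS at an adjusted p under 0.05, as was the case for all tested probe sets (0 of 9044, 0%). At an unadjusted p under 0.05, 23 of the 68 did, where 1133 of 9044 (12.5%) did in all. The median SR minus SS difference over the 61 higher probe sets was 0.14, against -0.040 over all tested. Examples were Tnpo2 (0.24, unadjusted p = 0.00204 by limma), Atp9a, a phospholipid flippase (0.20, unadjusted p = 0.00266), and Ganab (0.20, unadjusted p = 0.00735). Over the 61 the median difference was 0.39 of SR from CT, 0.26 of SR from YSR, 0.25 of SS from CT and 0.29 of SS from YSS, given as a description, since the 61 were chosen for higher signal in these same takers. Between yoked and CT rats 5 of the 68 had an unadjusted p under 0.05, where 378 of 9044 (4.18%) did, and none was called (0%). The median difference was 0.019, against 0.050 over all tested probe sets. The difference of SR from YSR was compared with that of SS from YSS, and no tested probe set was called (0%). At an unadjusted p under 0.05, 226 (2.5%) differed, 1 of them among the 68.

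Probe sets with no matched gene made up 19 of the 68 calls. The 3 of smallest p were all higher in takers, on chromosome 1 (221156368 to 221158864, minus strand, by 0.39, limma adjusted p = 0.00706), chromosome 12 (10295729 to 10296951, minus strand, by 0.40, adjusted p = 0.0112) and chromosome 11 (87765023 to 87774633, minus strand, by 0.29, adjusted p = 0.0124), in coordinates of the array annotation. At the first of them all 12 takers were above all 12 saline arrays. A probe set beside it on chromosome 1 (221153903 to 221154144, minus strand), singled out after its values were seen, was higher by 0.25 and called too.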

How the data were processed

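RNA from the NAc of 24 rats was hybridized to Affymetrix Rat Transcriptome Array 1.0 chips, 1 per rat. The deposited values are log2 signals that the authors made with Affymetrix Expression Console, per the labels. For the background correction, the normalization and the build, the sources used here name nothing. A second deposited table holds the authors' group averages and SDs in log2 units, which matched the array values to within 0.005 and were used for nothing else, and the authors' fold changes and p-values, which were not used. All per-array columns were mapped to a sample (0 unmapped).

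Probe sets with a mean CT signal above that of the bioB control (9.45) were tested, 9044 of 68842. One limma model of 5 groups (limma 3.58.1, R 4.3.3, empirical Bayes moderation, two-sided) was fitted to all 24 arrays, and the pooled contrast weighted groups by their arrays. P-values were adjusted by Benjamini-Hochberg over all tested probe sets, and 0.05 was the threshold. The fit was tested on simulated data. Genes were named where a probe set carried 1 symbol matched to RefSeq (GRCr8) on its chromosome, which held for 3821 tested probe sets. The genes named were the 20 called genes of smallest p in each direction, up to 10 past 1.7-fold, 5 of smallest p in a direction with under 5 calls, the PCR and study table genes, up to 4 per gene list and the 3 gene-less probe sets of smallest p. Other called genes, and Anp32a, Meg3 and Mbp, were named after their values were seen. Results for 1 called gene are not reported here. The members and lists were chosen with earlier results of these data known.

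Alternatives changed the groups fitted, group weights, filter, array scaling, array weights, moderation, probe sets per gene, replicate block, yoked arrays and each array in turn. The fit without moderation was chosen after seeing the data. That each rat is a separate animal comes from the study's description, and the number of arrays limits the precision. Figures were drawn with Python 3.11.15 and matplotlib 3.10.9.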

Additional observations from a re-analysis of the deposited data

Results flagged for a closer look

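In groups of 6 arrays, 28 of 360 group values of the named genes held an array far from the others of its group (Dixon's test), where chance gives about 1 in 20. In CT, the far array was at 10.90 for Qdpr, 12.42 for Mir770, 11.29 for Surf2, 14.20 for Psap and 9.999 for Sqstm1 among called genes, on the log2 scale. Among the myelin genes, CT replicate 1 was low for Mog (12.20), Mag (9.27) and Mobp (14.59), and it was high for Cartpt (11.70). CT replicate 3 was low for Surf2, Psap and Sqstm1, and also for Ctsb (14.82), Rpl6 (11.33), Prkaca (12.27), Ntrk2 (13.17) and Csf1r (10.36). Further CT arrays stood apart for Hspa9 (13.04), Nlk (12.77), Mt2A (15.42) and Rorb (11.02).

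In SR, replicate 1 was low for Mtch1 (10.58), Marchf7 (11.24), Sdha (11.41) and H3f3c (9.50) and high for Nrxn3 (14.22), and an SR array stood apart for Csf1r (11.02). In SS, the far array was at 10.22 for Prpf38b, which was the lowest taker of that gene, 12.37 for Eef1g, 13.31 for Prkar1a and 10.66 for Foxp2. The causes of these deviations were not tested.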

How the results depend on the processing

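All 41 called genes kept their direction under each alternative that tested them, which their choice on these same arrays largely fixes. The count of 68 calls was 36 with takers and saline rats as 2 groups only, 25 with equal group weights, 15 with equal array medians, 608 with array weights (607 with the same direction against both kinds of saline rat), 181 with 1 probe set per gene, 135 without moderation and 18 to 270 with each array left out in turn. Against CT (44) it was 76 with no filter, 8 with equal medians, 618 with array weights, 70 with 1 probe set per gene, 111 without moderation and 0 to 161 with an array left out. Against yoked rats (4) it was 10 after a further quantile normalization, 40 with array weights, 16 with 1 probe set per gene and 1 to 38 with an array left out. Past 1.7-fold (11) it was 34 with no filter, 2 with 1 probe set per gene and 6 to 14 with an array left out. The difference of SR from YSR against SS from YSS gave 0 calls throughout.

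The correlation of same-numbered arrays of different groups ran from r = -0.545 to 0.57 over 39 pairs, 13 of them over 0.1. Its mean by pair of groups ran from -0.297 (SR and YSR) to 0.285 (CT and YSS), and 7 arrays correlated best with their own number. Whether the replicate numbers mark a pairing was not tested. With the replicate number as a block, the pooled count was 5, that against CT 0 and that against yoked rats 0. Reversed differences were those of Pdk4 (0.11), Foxp1 (0.0081) and Cartpt (0.11) without the yoked arrays, and of Cartpt (0.024) without SS replicate 1, where its values with an array left out ran from -0.18 to 0.024. Over all single-gene values, 3707 kept their side of the threshold, 529 lost a call, 113 gained one and 4 reversed. The causes were not tested.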
